A study of Homo sapiens with 6 samples.

Results

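MAP kinase phosphatases and Sprouty-type proteins are brakes on the kinase cascades that run from cell-surface receptors to the nucleus. The 10 genes described here were DUSP1, DUSP4, DUSP5, DUSP6, DUSP10 and DUSP14, which encode dual-specificity phosphatases, and SPRY2, SPRY4, SPRED1 and SPRED2, which encode Sprouty and SPRED proteins. They were read through all probe sets that the platform annotation gave to only 1 of these genes, which came to 21 probe sets for 10 of the 19777 genes on the array that had such a probe set. The study compared TGFβ-treated with untreated Panc-1, a long-established human pancreatic adenocarcinoma cell line, on Affymetrix U133 Plus 2.0 arrays, with 3 arrays of each. Cells of both groups were starved of serum for 24 h. The TGFβ group then received porcine TGFβ1 at 5 ng/mL for 48 h, and the untreated group plain medium. The study's methods give the dose in another unit; the labels' value is printed here. The experiment was done 3 times in 1 cell line, so the p-values measure the spread between these repeats.

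As background, the dual-specificity phosphatases remove phosphate from both the threonine and the tyrosine of an active MAP kinase. DUSP1, DUSP4 and DUSP5 sit mainly in the nucleus, DUSP6 acts on ERK in the cytoplasm, DUSP10 prefers p38 and JNK, and DUSP14 is a small atypical family member. Sprouty and SPRED proteins act further up, at the plasma membrane, where they limit the passage of signals from receptor tyrosine kinases through RAS to RAF; SPRED proteins do so with neurofibromin, the RAS GTPase-activating protein. Many of these genes are themselves transcribed in response to ERK activity, so that the cascade induces its own inhibitors. TGFβ signals mainly through SMAD proteins, and also activates MAP kinases.

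The deposited values were log2 signals, on which a difference of 1 is a doubling. Probe sets with a mean signal under 100 (log2 6.64) in each of the groups were taken as too dim to test, following the study's methods. The other values were fitted with limma with the repeat as a block, and p-values were adjusted by the Benjamini-Hochberg method over all features of the array that passed this limit. Of the 21 probe sets, 13 passed, and they covered 8 of the 10 genes. All 13 had means above the limit in both groups. DUSP4 and DUSP10 had no probe set above it. The whole array changed broadly: 58.7% of the 10115 genes tested and 55.1% of the 19101 probe sets tested passed an adjusted p of 0.05, with 27.7% of genes higher and 31.0% lower, so a called gene was the more common outcome.

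Array medians ran from 5.14 to 5.21, and arrays of 1 group correlated at 0.995 or more over all probe sets. Of the markers of the carcinoma line, KRT8, KRT18, EPCAM and VIM were measured, whereas KRT19 was below the signal limit in both groups. The summed linear signal of these 5 markers was 5114 to 5530 with TGFβ and 11994 to 12229 without. In this sum each gene was the mean of all its probe sets, dim ones included. For VIM that mean was log2 9.78 with TGFβ and 8.99 without, far below the 14.29 and 13.92 of its measured probe sets. The sum therefore gives little weight to VIM. KRT8, KRT18 and EPCAM were lower and VIM higher, and the part of this in the results was not tested. None of 15 markers of leukocytes, endothelial cells, fibroblasts or stellate cells, and acinar or islet cells reached the limit, and their summed linear signals were 293 to 319 with TGFβ and 301 to 310 without. The 3′ minus 5′ difference of the ACTB control probe sets, a sign of RNA quality, was 0.33 ± 0.060 with TGFβ and 0.55 ± 0.031 in untreated cells (SD, n = 3 each). For the GAPDH control probe sets it was -0.028 ± 0.023 with TGFβ and -0.0096 ± 0.0096 in untreated cells. The part of RNA quality in the results was not tested. In bulk RNA, a change in the share of cells that express a gene and a change in RNA per cell cannot be told apart.

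Genes of this set moved in both directions. Of the 8 measured, DUSP5 and SPRY4 rose, DUSP6, SPRY2 and SPRED2 fell, and DUSP1, DUSP14 and SPRED1 did not pass the test. That is 5 of 8 genes (62.5%), close to the 58.7% of all genes. The median log2 change over the 8 genes was -0.11, against -0.013 over all genes tested, and the median size of the change was 0.22 against 0.21. Only DUSP5 and DUSP6 changed by at least 1.5-fold, 2 of 8 genes, where 13.4% of all genes did so. The 3 TGFβ values and the 3 untreated values did not overlap for 6 of the 8 genes, against 68.2% of all genes. The count of called genes was 2 of 8 without repeat 2, DUSP5 and DUSP6, where 42.3% of all genes were called. It was 3 of 8 without repeat 3, against 46.5% of all genes, and 6 of 8 without repeat 1, against 63.8%.

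**Figure D1:**
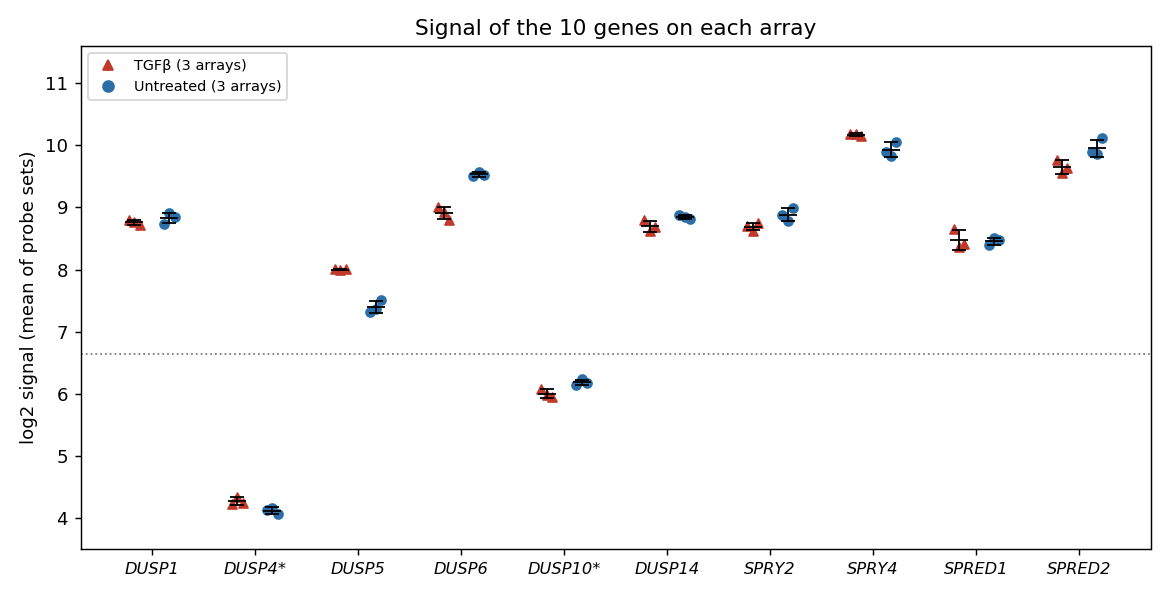
Log2 signal of each of the 8 measured genes and of the dim genes DUSP4 and DUSP10 on every array, TGFβ arrays left and untreated arrays right, with group means and SDs as bars, the signal limit as a dotted line and an asterisk at the dim genes. DUSP5 and DUSP6 show the widest gaps between groups, in opposite directions.

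To show the DNA around the start sites, the 250 bases upstream of the start are given for 4 genes whose results differ: DUSP6 and SPRY2 (the most upstream of its 3 starts), which fell, SPRY4, which rose, and DUSP1, whose probe sets were unequal. They are from RefSeq, build GRCh38.p14, minus strand, read 5′ to 3′. Capitals mark matches to the motifs searched on both strands, TGACGTCA (cyclic AMP response element), TGANTCA (AP-1), CAGAC (SMAD) and CCGGAA (ETS), which do not overlap each other here.
DUSP6 (chr12:89352502-89352751): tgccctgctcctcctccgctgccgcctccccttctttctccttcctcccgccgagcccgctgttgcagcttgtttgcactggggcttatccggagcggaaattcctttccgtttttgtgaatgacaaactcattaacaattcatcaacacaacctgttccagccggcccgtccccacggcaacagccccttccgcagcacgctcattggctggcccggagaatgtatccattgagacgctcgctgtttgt
SPRY4 (chr5:142324248-142324497): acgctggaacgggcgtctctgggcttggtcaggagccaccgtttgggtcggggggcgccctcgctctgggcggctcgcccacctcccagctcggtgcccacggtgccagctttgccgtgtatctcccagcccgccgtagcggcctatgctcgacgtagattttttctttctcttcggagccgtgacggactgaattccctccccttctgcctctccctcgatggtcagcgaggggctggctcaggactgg
SPRY2 (chr13:80341127-80341376): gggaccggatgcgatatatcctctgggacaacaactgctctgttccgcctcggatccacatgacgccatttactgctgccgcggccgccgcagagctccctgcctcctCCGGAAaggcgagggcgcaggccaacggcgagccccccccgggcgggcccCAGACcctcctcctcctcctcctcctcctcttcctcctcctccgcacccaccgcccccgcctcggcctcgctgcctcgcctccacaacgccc
DUSP1 (chr5:172771196-172771445): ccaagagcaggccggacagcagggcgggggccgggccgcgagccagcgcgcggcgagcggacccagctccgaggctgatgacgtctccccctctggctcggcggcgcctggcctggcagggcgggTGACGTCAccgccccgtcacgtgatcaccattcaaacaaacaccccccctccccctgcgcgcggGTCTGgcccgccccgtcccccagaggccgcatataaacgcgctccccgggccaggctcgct
Windows were at hand for 8 of the 10 genes, DUSP4 and DUSP5 being the others. The cyclic AMP response element was present in DUSP1 alone, 125 bases before the start, in 1 of the 8 genes, and in 1.65% of all 35116 windows of this length. The SMAD letters occurred in 4 of the 8, DUSP1, SPRY2, SPRED1 and SPRED2. Some genes had several windows, and by window the letters were in 6 of the 12 of these genes. Over all 35116 windows they were in 13345. The ETS letters occurred in SPRY2 only, and in 14.5% of all windows; AP-1 letters were in none of the 8 and in 6.57% of all. DUSP6 and SPRY4 held none of the 4 motifs in these stretches. A match is a description of letters, not a bound site.

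DUSP6, the cytoplasmic phosphatase with a preference for ERK, fell furthest of the 10. Its gene value was 9.003, 8.920 and 8.802 on the TGFβ arrays, against 9.502, 9.572 and 9.518 on the untreated arrays. All 3 TGFβ arrays lay below all 3 untreated arrays, with a log2 change of -0.62 (SE 0.060, adjusted p = 0.000363, limma), or 1.54-fold lower. All 3 of its probe sets fell. Probe set 208891_at moved most, with 9.21, 9.06 and 9.04 with TGFβ and 9.83, 9.85 and 9.90 without, a change of -0.76 (SE 0.067, 1.69-fold lower). Probe set 208892_s_at read 9.06, 8.97 and 8.73 with TGFβ and 9.41, 9.53 and 9.55 without, a change of -0.58 (SE 0.092). Probe set 208893_s_at read 8.75, 8.73 and 8.63 with TGFβ and 9.26, 9.34 and 9.10 without, a change of -0.53 (SE 0.057). In each of them the highest TGFβ array stayed below the lowest untreated array. The limma test of the differences between probe sets passed for none of the 3 pairs (the largest, 208891_at minus 208893_s_at, was -0.23, SE 0.083, adjusted p = 0.0876).

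DUSP5, the nuclear phosphatase that is specific for ERK, moved the other way. Its single probe set, 209457_at, read 8.008, 7.986 and 8.002 with TGFβ and 7.322, 7.359 and 7.511 without. The TGFβ arrays were nearly equal (7.999 ± 0.011) and all above the untreated arrays (7.397 ± 0.0998, SD, n = 3 each). The log2 change was 0.60 (SE 0.058, adjusted p = 0.000355, limma), or 1.52-fold higher. DUSP5 and DUSP6 were called under all 17 alternatives to the processing, a check that also left out each repeat.

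The other measured phosphatases did not pass the test as genes. DUSP1, the stress-induced phosphatase of p38, JNK and ERK, had a gene value of 8.80, 8.76 and 8.72 with TGFβ, against 8.74, 8.90 and 8.85 without. The groups overlapped, and the change was -0.070 (SE 0.060, adjusted p = 0.352, limma; 95% interval -0.22 to 0.076). DUSP14, which binds and dephosphorylates MAP kinases and adaptor proteins, had 8.79, 8.62 and 8.68 with TGFβ and 8.87, 8.85 and 8.81 without. All TGFβ arrays were below the untreated ones, but the change of -0.15 (SE 0.053, adjusted p = 0.0553, limma) missed the threshold. It passed narrowly without the repeat as a block (0.0464), with quantile scaling (0.0446) and with limma's trend option (0.0493), and without repeat 1 (0.0233).

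DUSP4 and DUSP10 were dim, and their values come from the fit over all genes with no signal limit, in which 26.8% of genes were called. DUSP4, a nuclear phosphatase of ERK, JNK and p38, averaged over 3 probe sets 4.22, 4.34 and 4.24 with TGFβ and 4.13, 4.16 and 4.06 without, which gave 0.15 (SE 0.055, adjusted p = 0.0909, limma). DUSP10, with 2 probe sets, had 6.08, 5.98 and 5.94 with TGFβ and 6.15, 6.23 and 6.17 without. Its change was -0.18 (SE 0.062, adjusted p = 0.0750, limma). The call on DUSP10 depended on the processing. Its adjusted p was 0.0377 without the repeat as a block, 0.0313 without repeat 1 and 0.0487 with 16 added to each signal (limma). It was 0.0333 without probe sets that may match several transcripts, and 0.0367 with the brightest probe set alone (limma). Neither DUSP4 nor DUSP10 passed in the fit given above, although the groups did not overlap for either gene. Without the limit the groups did not overlap for 43.5% of all genes, a share that takes in the bright genes too. Within DUSP4, the probe sets 204015_s_at and 226034_at changed by 0.21 and 0.23 and 204014_at by 0.013, none of them called. Within DUSP10, 221563_at had 6.45, 6.35 and 6.26 with TGFβ and 6.62, 6.58 and 6.57 without, a change of -0.24 (adjusted p = 0.0580, limma), and 215501_s_at changed by -0.12 (adjusted p = 0.396, limma). Of the 8 dim probe sets of all members, 4 did not overlap between groups. Over all probe sets without the limit it was 36.0%, but that share takes in the bright ones, of which 65.5% did not overlap. The share among dim probe sets alone is therefore lower than 36.0%.

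Of the Sprouty genes, SPRY2 fell and SPRY4 rose. SPRY2, an inhibitor that is phosphorylated after growth factor stimulation, was 8.70, 8.63 and 8.74 with TGFβ and 8.88, 8.78 and 8.98 without. No TGFβ array reached the lowest untreated array, and the change was -0.19 (SE 0.050, adjusted p = 0.0171, limma), 1.14-fold lower. SPRY4, which acts on the same step of RAS activation, read 10.18, 10.18 and 10.15 with TGFβ, against 9.90, 9.83 and 10.06 without. Here all TGFβ arrays were above the untreated ones, by 0.24 (SE 0.065, adjusted p = 0.0200, limma), 1.18-fold higher. Both changes were small, and both calls depended on which repeats were kept. SPRY2 had an adjusted p of 0.0694 without repeat 2, of 0.128 without repeat 3 and of 0.0561 with each array centred on its median, and SPRY4 of 0.128 without repeat 2.

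**Figure D2:**
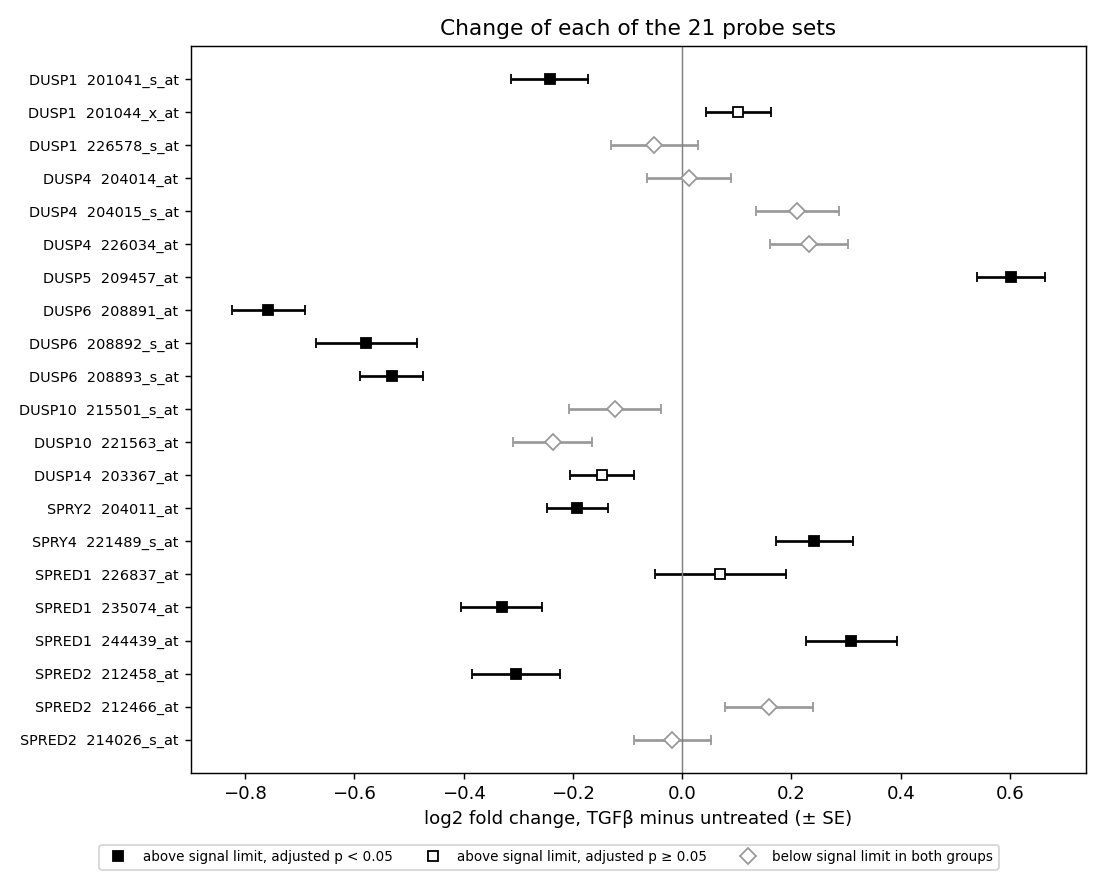
Log2 fold change (TGFβ minus untreated) with its standard error for all 21 probe sets, filled where the adjusted p was under 0.05 and grey where the probe set was below the signal limit in both groups. The 3 probe sets of DUSP6 lie to the left, DUSP5 to the right, and those of DUSP1, SPRED1 and SPRED2 on both sides of 0.

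Read by probe set, 10 of 13 (76.9%) were called, 3 higher and 7 lower, against 55.1% of all probe sets, 26.6% higher and 28.5% lower, and 12 of 13 did not overlap between groups, against 65.5% of all. The count of 10 includes genes with several probe sets. It was 5 of 13 without repeat 2 and 5 of 13 without repeat 3, where 38.4% and 41.7% of all probe sets were called, and 11 of 13 without repeat 1, against 61.0%. With the probe sets that may share sequence with other transcripts left out, 6 of the remaining 8 were called, against 56.6% of all. The gene values of DUSP1 and SPRED1 were means of probe sets that moved unequally, and those were tested as pairs of the same gene. Such a pair differed in 29.9% of the 10592 pairs of the array (the difference was above 0 in 18.6% and below 0 in 11.3%), so unequal probe sets were frequent. The 3 members with several measured probe sets, DUSP1, DUSP6 and SPRED1, formed 7 pairs, of which 3 were called, and pairs of a gene share probe sets.

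SPRED1, an inhibitor of RAS to RAF signalling, held the largest of these differences. Its gene value was 8.652, 8.355 and 8.411 with TGFβ and 8.397, 8.503 and 8.469 without, and the change was 0.017 (SE 0.084, adjusted p = 0.878, limma; 95% interval -0.19 to 0.22). Probe set 235074_at read 8.75, 8.57 and 8.65 with TGFβ, against 8.90, 8.99 and 9.07 without, a change of -0.33 (SE 0.074, adjusted p = 0.0109, limma). Probe set 244439_at read 7.31, 7.04 and 7.11 with TGFβ and 6.84, 6.95 and 6.74 without, a change of 0.31 (SE 0.084, adjusted p = 0.0214, limma). Each was free of overlap, in opposite directions. The difference of their changes was -0.64 (SE 0.081, adjusted p = 0.00269, limma). That difference held with each repeat left out, but the calls of the single probe sets did not: 235074_at had an adjusted p of 0.0691 without repeat 2 and 0.0559 without repeat 3, and 244439_at of 0.0816 without repeat 3 (limma). Probe set 226837_at, read 9.90, 9.45 and 9.47 with TGFβ and 9.45, 9.56 and 9.59 without, with the first TGFβ array apart from the other two. Its change was 0.070 (SE 0.12, adjusted p = 0.648, limma), -0.12 without repeat 1, and it differed from 235074_at by 0.40 (SE 0.087, adjusted p = 0.0171, limma) and from 244439_at by -0.24 (SE 0.10, adjusted p = 0.127, limma). No single direction can be given for SPRED1 from these probe sets.

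The probe sets of DUSP1 also moved unequally, by less than the largest difference in SPRED1, but only 201041_s_at was called. Probe set 201041_s_at had 10.38, 10.25 and 10.21 with TGFβ and 10.46, 10.60 and 10.51 without, a change of -0.24 (SE 0.071, adjusted p = 0.0281, limma; 0.168 without repeat 2 and 0.126 without repeat 3). Probe set 201044_x_at had 7.21, 7.27 and 7.24 with TGFβ and 7.02, 7.21 and 7.18 without, a change of 0.10 (SE 0.059, adjusted p = 0.187, limma). The difference of the changes was -0.35 (SE 0.071, adjusted p = 0.0139, limma), with an adjusted p of 0.0996 without repeat 2 and 0.0749 without repeat 3. The suffixes s and x mark probe sets that may match several transcripts, so the transcript behind each signal is uncertain. Its remaining probe set, 226578_s_at, was below the limit.

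**Figure D3:**
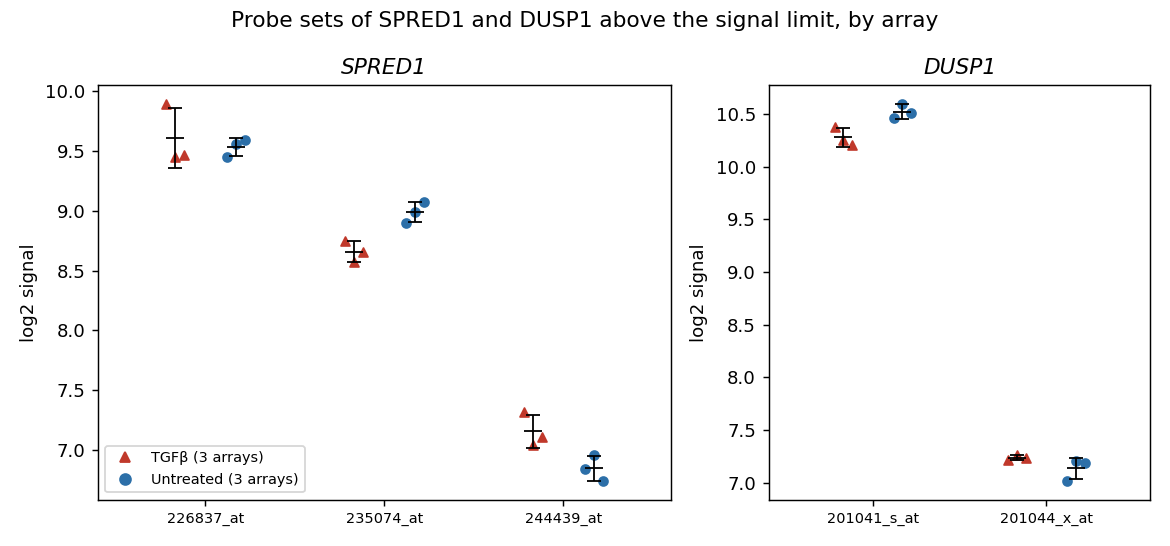
Log2 signal of the measured probe sets of SPRED1 and DUSP1 by array, TGFβ left and untreated right, with group means and SDs as bars. For SPRED1, 235074_at lay lower and 244439_at higher with TGFβ on all 3 arrays, and for DUSP1, 201041_s_at lay lower on all 3.

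SPRED2, the relative of SPRED1, was measured by 1 of its 3 probe sets, 212458_at, with 9.77, 9.55 and 9.63 with TGFβ and 9.89, 9.86 and 10.11 without. All TGFβ arrays were below the untreated ones, with a change of -0.30 (SE 0.077, adjusted p = 0.0154, limma), 1.23-fold lower. The dim probe sets 212466_at and 214026_s_at changed by 0.16 and -0.018 and were not called in the fit with no signal limit, which called 20.2% of all probe sets, and the mean of all 3 by -0.054 (adjusted p = 0.548, limma, no signal limit). With no signal limit, the change of 212458_at differed from that of 212466_at by -0.46 (SE 0.12, adjusted p = 0.0334, limma). In that fit 19.0% of all pairs of the same gene were called. The adjusted p of the measured SPRED2 gene value was 0.0614 without repeat 2 and 0.0751 without repeat 3. The first TGFβ array gave the highest of the 3 TGFβ values in 11 of the 13 measured probe sets, where 53.9% of all probe sets had it highest. The part of this in the results was not tested.

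The other members of these families and of the cascades were read as lists, each by how many of its measured genes were called, with 27.7% of all genes higher and 31.0% lower. Of the remaining Sprouty and SPRED genes, 2 of 3 were measured. SPRY1, an inhibitor of the same step as SPRY2, had 6.78, 7.12 and 7.14 with TGFβ and 8.79, 8.70 and 8.59 without, and fell by 1.68 on the log2 scale (SE 0.11, adjusted p = 7.56e-05, limma), 3.21-fold lower. That exceeds the change of any of the 10 genes. SPRED3 changed by 0.079 (adjusted p = 0.310, limma), and SPRY3 was below the limit. Of 5 further MAP kinase phosphatases, 3 were measured. DUSP7, a cytoplasmic ERK phosphatase like DUSP6, rose by 0.40 (SE 0.092, adjusted p = 0.0107, limma), and DUSP16, a phosphatase of JNK and p38, fell by 0.30 on the log2 scale (SE 0.063, adjusted p = 0.00791, limma), though the mean of all its probe sets changed by -0.071 (adjusted p = 0.421, limma, no signal limit). DUSP8 did not pass at -0.037, and DUSP2 and DUSP9 were below the limit.

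Of 14 atypical dual-specificity phosphatases, 9 were measured, 5 higher, 1 lower and 3 not called, with a median of 0.20. DUSP15 rose by 1.06 (6.868, 7.047 and 7.005 with TGFβ, against 5.932, 5.958 and 5.857 without, where it was below the limit), STYX, a catalytically inactive relative, by 0.39, and DUSP11, an RNA phosphatase, by 0.20, with DUSP28 fallen by 0.29 on the log2 scale. Other inhibitors of receptor tyrosine kinases and RAS were split, 4 higher and 4 lower of 9 measured. CBL, a ubiquitin ligase for activated receptors, rose by 0.92, and its relative CBLB fell by 0.65 on the log2 scale. RASAL2 and RASA3, both RAS GTPase-activating proteins, rose by 0.84 and fell by 0.62 on that scale.

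The kinase cascades were read in the same way. Of 18 measured genes of the RAS-ERK cascade, 7 were higher, 3 lower and 8 not called, with a median of 0.057. Among those called, the receptor EGFR rose by 0.48, the adaptor SHC1 by 0.40, the adaptor GAB1 fell by 0.25 and the RAS-binding scaffold SHOC2 by 0.19 on the log2 scale. Of 15 measured genes of the p38, JNK and ERK5 cascades, 2 were higher and 4 lower, with a median of -0.047. MAP2K6, an activator of p38, fell most, with 5.90, 5.99 and 6.05 with TGFβ and 7.38, 7.23 and 7.24 without, a change of -1.30 (SE 0.069), the TGFβ values lying below the limit. MAP3K1 fell by 0.79 on the log2 scale, MAP3K5 rose by 0.44 and MAPKAPK2, a substrate kinase of p38, by 0.32.

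Of 14 other transcripts known to respond to ERK, 12 were measured, 8 higher, 3 lower and 1 not called, with a median of 0.49 against -0.013 for all genes. The highest were IER3, an immediate early gene, with 12.08, 12.03 and 12.05 with TGFβ and 10.32, 10.44 and 10.55 without, a change of 1.62 (SE 0.063), and MYC, which rose by 1.37 (SE 0.060). The lowest were ETV1, an ETS transcription factor, at -1.17 (SE 0.067), whose TGFβ values lay below the limit, so that it was tested only through its untreated level, and PHLDA1 at -0.97 (SE 0.050). Leaving the signal limit out moved DUSP15 to 0.58, RASAL2 to 0.45, RASA3 to -0.32, EGFR to 0.29, MAP2K6 to -0.80, MAP3K1 to -0.52 and ETV1 to -0.74, as their gene value then took in dim probe sets. With the brightest probe set in place of the mean, STYX was at 0.21 and no longer called (adjusted p = 0.0603, limma), SHC1 at 0.19, PHLDA1 at -0.50 and ETV1 at -1.86. The calls of DUSP11 and SHOC2 were lost without repeat 2 or repeat 3, and that of MAPKAPK2 without repeat 2.

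**Figure D4:**
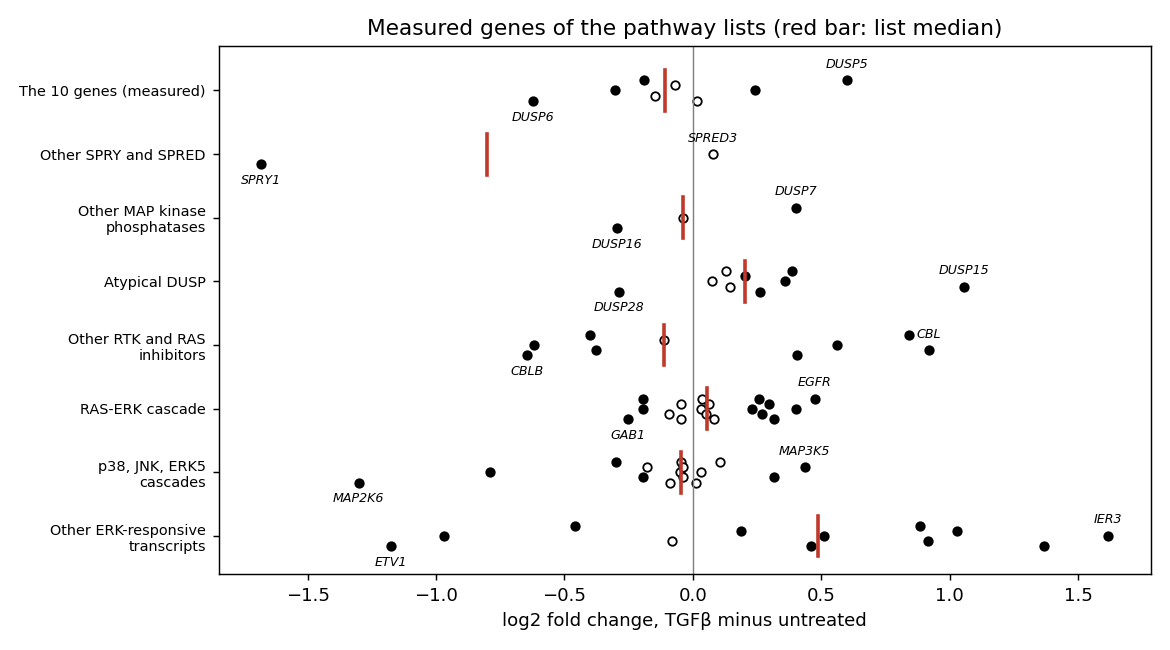
Log2 fold change (TGFβ minus untreated) of every measured gene of the 10 and of each list, filled where the adjusted p was under 0.05, with the list median as a red bar and the lowest and highest gene named. Genes of most lists lie on both sides of 0, and SPRY1 lies farther out than any of the 10.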

How the data were processed

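RNA from 3 TGFβ-treated and 3 untreated Panc-1 cultures was hybridised to Affymetrix U133 Plus 2.0 arrays. The authors deposited log2 values per probe set, a unit taken from their range; which software summarised and normalised them was not given in the sources used here. Of 54675 probe sets, 62 controls were left out; 41091 had a single gene in the platform annotation, 1801 several and 11721 none. Gene identifiers were matched to RefSeq for 19735 of 19777 genes.

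Probe sets with a mean signal under 100 in both groups were left out, and each gene was given the mean of its kept single-gene probe sets. Genes, probe sets and within-gene pairs were fitted with limma 3.58.1 in R 4.3.3 (lmFit, eBayes, two-sided, Benjamini-Hochberg adjustment over all features, threshold 0.05), with the repeat as a block, since the study's methods test the repeats as pairs. The scripts were tested on simulated data. All 10 genes are named; from each list of related genes, up to 2 highest and 2 lowest called genes are named, and short lists whole. The 10 genes and the lists were chosen with earlier results of these data known. With 3 arrays a group, array number limits precision throughout. Alternatives covered the block, the signal limit, scaling, the gene value, probe sets with suffix x or s, the methods' paired test and leaving out each repeat.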

Additional observations from a re-analysis of the deposited data

How the results depend on the processing

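DUSP5 and DUSP6 kept their calls and directions under all 17 alternatives as genes, and SPRY1 did too. The count of called genes among the 10 was 5, of their probe sets 10, of all genes 5934, of all probe sets 10524, of within-gene pairs 3166 and of list genes 44. Without the repeat as a block these counts were 6, 10, 6265, 11058, 3221 and 43, and DUSP14 was the added gene (adjusted p = 0.0464, limma). The dim DUSP10 was called without the block as well (0.0377). The deviations of arrays with the same number correlated at -0.24, 0.24 and 0.11, so the numbers alone do not show that arrays were paired. Leaving out each repeat gave 2 to 6 genes and 5 to 11 probe sets of the 10 genes, against 4280 to 6458 of all genes and 7343 to 11656 of all probe sets, and 1764 to 3829 pairs; the 2 genes came without repeat 2, and the 5 probe sets both without repeat 2 and without repeat 3. With the methods' paired test on linear signals, 3 of the 8 genes and 5 of the 13 probe sets passed unadjusted. Over the whole array 4835 of 10115 genes and 8588 of 19101 probe sets did so, which are larger shares. After Benjamini-Hochberg 2 of the genes and 2 of the probe sets passed, with 2337 genes, 2965 probe sets and 21 list genes in all. On log2 values 3 of the genes and 5 of the probe sets passed unadjusted, against 4868 genes and 8637 probe sets of the whole array. Adjusted, 2 and 1 passed, with 2414 genes, 3274 probe sets, 21 list genes and 0 pairs in all (2914 pairs unadjusted, 3166 with limma). Without probe sets of suffix x or s, 6 of 8 probe sets of the 10 genes, 6008 of 10621 probe sets in all and 1226 of 2997 pairs were called, with fewer features tested. Without the signal limit, 8057 pairs were called, from more pairs.

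The direction turned for SPRED1 (-0.10 without repeat 1, 0.099 without repeat 2), its probe set 226837_at (-0.12 and, at the other end, 0.17 without repeat 3), the dim DUSP4 204014_at (-0.045 without repeat 3, 0.059 without repeat 1), SPRED2 214026_s_at (0.0020 without repeat 2, -0.028 without repeat 3), the DUSP6 pair 208892_s_at minus 208893_s_at (0.10 without repeat 3, -0.15 without repeat 1) and DUSP8 (0.038 with no signal limit, 0.11 without repeat 1, -0.16 without repeat 2). None of these was called, and the cause was not tested. Of the 162 alternatives tried for the 10 genes, 132 kept direction and side of the threshold, 17 lost the call, 12 gained it and 1 turned direction. Quantile scaling and median centring shifted the median of all genes by 0.0051 and -0.0011. The methods' test on linear signals was not run for pairs. With 3 arrays a group, small changes such as those of SPRY2, SPRY4 and SPRED2 are at the limit of what the arrays resolve.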
